A study of Homo sapiens with 4 samples.

Results

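BAF45D (DPF2), a component of BAF chromatin remodellers, was mapped on DNA in the human embryonic stem cell line H9 (ESC) and in neural stem cells of spinal cord type derived from that line (NSC). The members described are the genomic regions with a BAF45D peak in both ESC libraries and in neither NSC library. Peaks of the 4 libraries on chromosomes 1 to 22 and X that overlapped by at least 1 bp were joined into 44534 regions, of which 736 met this rule, or 1.65%. Members were split into 52 regions within 200 bp of a tRNA gene, 103 other regions within 2 Mb of a centromeric band, and 581 remaining regions. Members were chosen by peak presence in all 4 libraries, so the number of members and their absence from NSC are how they were chosen and not a finding.

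The assay was CUT&Tag, in which an antibody guides a protein A-Tn5 fusion to cut and tag DNA beside the target, with 100000 cells per assay. The ESC libraries (ESC1 and ESC2) came from H9 cells on Matrigel in mTeSR1 medium. The NSC libraries (NSC1 and NSC2) came from H9 cells carried through N2B27 induction medium with LDN-193189, SB431542, CHIR-99021, FGF2, FGF8 and DAPT, then maintenance medium with SB-431542, CHIR-99021 and the agonist Hh-Ag 1.5, and last N2B27 with FGF2 and EGF. Y-27632, a ROCK inhibitor, was added before induction and at passages. All libraries share 1 cell line and 1 antibody, and nothing states that the 2 libraries of a group came from separate cultures. No library without the BAF45D antibody was analysed here.

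The ESC libraries had more tags and shorter lists: 20734829 tags and 4204 peaks in ESC1 and 18953543 tags and 12533 peaks in ESC2, against 5566407 tags and 29783 peaks in NSC1 and 5377831 tags and 24669 peaks in NSC2. The lowest pileup of a listed peak was 8 and 7 reads in ESC1 and ESC2 and 4 in either NSC library. The depth of a library and its cell type cannot be told apart here, and a region called ESC-only is one where an NSC peak was not listed, not one shown to lack BAF45D. With 2 libraries against 2, the smallest 2-sided p of an exact permutation test is 0.33, so no p-value is given. Peak strength (−log10 q, pileup in reads and fold enrichment, all as the authors' peak caller gave them) is used to rank and describe peaks within a list. The −log10 q values are also correlated between the 2 ESC lists. The lists hold no expression values, so the cell types were not checked by markers.

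BAF complexes use ATP to move or evict nucleosomes, and the BAF45 subunits carry paired PHD fingers that read modified histone tails. Transfer RNA genes are short genes transcribed by RNA polymerase III from promoter elements within the gene, the A box and the B box, to which TFIIIC binds. They lie in clusters, the largest of them in the histone gene region of chromosome 6. Centromeres are built on long arrays of satellite repeats, and in a reference assembly the sequence beside them is rich in near-identical copies, so that a read there can often be placed in several positions.

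Sequences of 2 member tRNA genes are shown because they are the only complete ones inside a promoter window of the RefSeq table (GRCh38.p14). The first window is chr6:28943534-28943783, plus strand, before LINC01556, with the 82 bases of the leucine tRNA gene TRL-AAG2-2 in capitals. The second is chr15:45201117-45201366, minus strand, before SHF, with the 72 bases of the histidine tRNA gene TRH-GTG1-9 in capitals.
TRL-AAG2-2: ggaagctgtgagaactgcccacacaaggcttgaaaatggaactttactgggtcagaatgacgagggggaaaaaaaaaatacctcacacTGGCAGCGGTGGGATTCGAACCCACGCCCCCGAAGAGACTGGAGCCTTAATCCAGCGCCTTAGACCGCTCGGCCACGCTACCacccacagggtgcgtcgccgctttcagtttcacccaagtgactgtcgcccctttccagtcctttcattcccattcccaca
TRH-GTG1-9: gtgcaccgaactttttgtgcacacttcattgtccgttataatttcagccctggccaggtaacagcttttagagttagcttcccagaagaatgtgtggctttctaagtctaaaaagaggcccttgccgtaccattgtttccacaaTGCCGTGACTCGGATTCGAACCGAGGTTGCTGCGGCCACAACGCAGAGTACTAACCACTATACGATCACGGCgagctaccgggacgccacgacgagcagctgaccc
The table gives no strand for tRNA genes. The core letters of the B box, GTTCGANTC, searched on both strands, appear as GATTCGAAC at bases 101 to 109 of the first run and at bases 157 to 165 of the second, both on the strand opposite to the one printed. Of 34961 promoter windows of 300 bp in the table, 89 (0.255%) held the B box letters. The A box letters, TGGCNNAG, appear as CTCGGCCA at bases 156 to 163 of the first run, also on the opposite strand. They were not found in the second run, and 21.3% of the 34961 windows held them. Both runs were chosen for holding a complete tRNA gene, so these matches show nothing particular to members.

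Windows of 250 bases before the start of 4 genes with a remaining member at the start are shown next, because each belongs to a group described below. Capitals mark the bases inside the ESC-only region. L1TD1 lies at chr1:62194599-62194848 on the plus strand, CLDN7 at chr17:7263214-7263463, SP8 at chr7:20786887-20787136 and ZFP36L1 at chr14:68796244-68796493, all 3 on the minus strand.
L1TD1: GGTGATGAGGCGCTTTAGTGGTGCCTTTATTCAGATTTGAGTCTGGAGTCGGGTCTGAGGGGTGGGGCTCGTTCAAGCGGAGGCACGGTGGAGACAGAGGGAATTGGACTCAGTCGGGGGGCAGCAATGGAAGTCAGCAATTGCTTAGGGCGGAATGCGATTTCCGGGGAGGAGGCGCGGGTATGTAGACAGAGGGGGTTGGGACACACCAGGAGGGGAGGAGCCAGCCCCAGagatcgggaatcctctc
CLDN7: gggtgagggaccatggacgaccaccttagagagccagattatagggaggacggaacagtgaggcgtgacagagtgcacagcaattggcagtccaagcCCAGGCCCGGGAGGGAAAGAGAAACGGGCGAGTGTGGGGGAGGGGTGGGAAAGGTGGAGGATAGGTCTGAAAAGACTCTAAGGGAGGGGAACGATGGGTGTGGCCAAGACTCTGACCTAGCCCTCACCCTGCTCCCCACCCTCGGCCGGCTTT
SP8: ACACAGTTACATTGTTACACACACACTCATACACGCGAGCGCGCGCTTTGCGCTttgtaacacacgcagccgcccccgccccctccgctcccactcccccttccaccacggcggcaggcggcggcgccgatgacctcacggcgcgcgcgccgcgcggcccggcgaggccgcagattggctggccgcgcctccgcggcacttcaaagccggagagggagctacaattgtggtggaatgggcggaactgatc
ZFP36L1: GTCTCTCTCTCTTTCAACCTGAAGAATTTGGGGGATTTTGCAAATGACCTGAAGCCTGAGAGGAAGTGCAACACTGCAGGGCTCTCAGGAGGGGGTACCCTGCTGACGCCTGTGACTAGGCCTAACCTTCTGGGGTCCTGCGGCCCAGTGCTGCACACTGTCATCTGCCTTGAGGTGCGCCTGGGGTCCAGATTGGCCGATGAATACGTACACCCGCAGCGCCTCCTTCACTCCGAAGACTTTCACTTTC
The region covered 233 of the 250 bases before L1TD1, 153 before CLDN7, 54 before SP8 and all 250 before ZFP36L1. The letters CCAAT, searched on both strands, are in each of these 4 windows (as ATTGG in the runs printed). They lie inside the region before L1TD1 and ZFP36L1, and outside it before CLDN7 and SP8. Of all windows, taken at 300 bp, 34.6% hold them, and the windows of PTER and PRAME, also described below, do not.

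Members near tRNA genes were 52 of the 242 merged regions near such genes (21.5%), against 103 of 1316 regions near centromeres (7.83%) and 581 of 42976 remaining regions (1.35%). Put the other way, 7.07% of ESC-only regions lay near a tRNA gene (95% Wilson interval 5.43 to 9.15%, counting error only), as did 9 of 13646 NSC-only regions (0.0660%), 5.08% of the 1458 regions with a peak in all 4 libraries and 0.543% of all regions. A share of merged regions depends on how many peaks the NSC lists add, so the base used below is the 2442 regions with a peak of both ESC libraries, of which 736 (30.1%) had no NSC peak. On that base the share was 38.2% near tRNA genes (52 of 136), 38.3% near centromeres (103 of 269) and 28.5% elsewhere (581 of 2037).

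With the full peak lists, distance to coding gene ends separated members from non-members in all 3 classes. Among remaining regions with both ESC peaks, 64 of 965 within 1 kb of an end of a protein-coding gene were ESC-only (6.63%, interval 5.23 to 8.38%), against 317 of 688 inside genes (46.1%, 42.4 to 49.8%) and 200 of 384 outside genes (52.1%, 47.1 to 57.0%). Near tRNA genes the same split was 2 of 29 at coding gene ends (6.90%) and 50 of 106 away from them and inside a gene, the tRNA gene itself included (47.2%). Near centromeres it was 1 of 22 at gene ends, 12 of 32 inside genes and 90 of 215 outside. The 2 ESC lists chose the base and the NSC lists chose the members, so these shares are descriptions with no test. They also rest on NSC lists longer than the ESC lists, and they were not recomputed at equal list length. At that length 207 of 661 remaining members (31.3%) lay at gene ends, against 64 of 581 (11.02%) with the full lists.

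**Figure D1:**
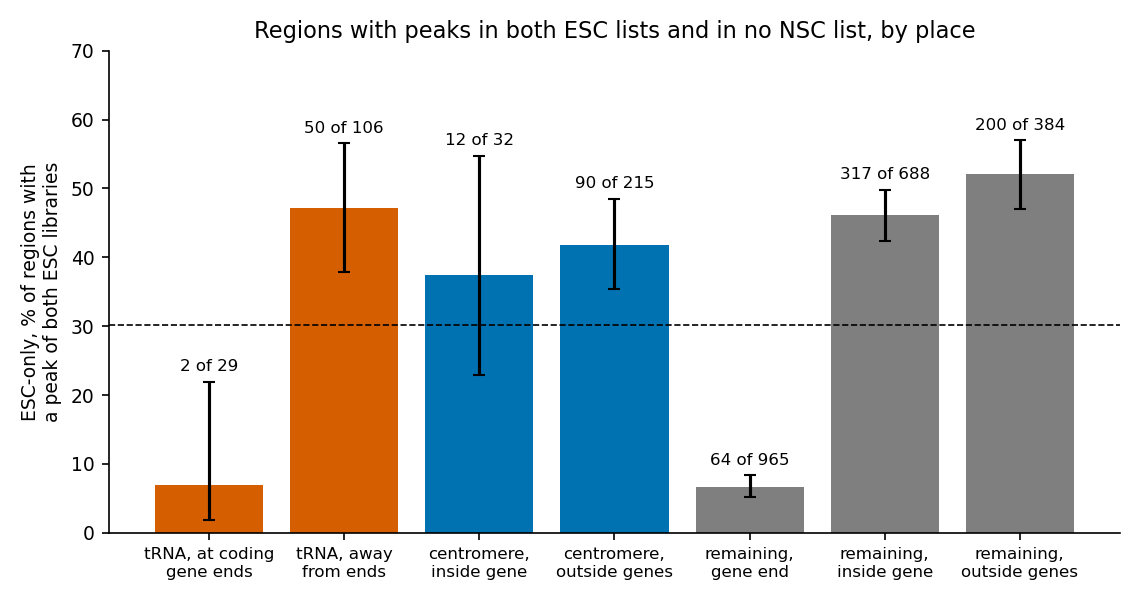
Bars give the percent of regions with a peak of both ESC libraries that had no NSC peak, by class and place, with 95% Wilson intervals and the counts above, and the dashed line marks the share over all 2442 such regions (30.1%). With the full lists, the bars at coding gene ends stand at 6.90 and 6.63%, and the others between 37.5 and 52.1%. Not drawn are 1 centromeric member of 22 regions at gene ends and 1 region near a tRNA gene outside genes.

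The share also fell with peak strength. When the remaining regions with both ESC peaks were cut into 4 equal groups by mean rank in the ESC lists, it was 58.6% in the weakest group, then 29.9%, 16.5% and 9.04% in the strongest. Place and strength were therefore read together, with 4 such groups taken over all 2442 regions. In the strongest group, 13 of 46 tRNA regions away from gene ends were ESC-only (28.3%, interval 17.3 to 42.5%), against 33 of 221 remaining regions away from gene ends (14.9%, 10.8 to 20.2%), 17 of 135 near centromeres (12.6%, 8.01 to 19.2%) and 4 of 193 remaining regions at gene ends (2.07%). In the next group these shares were 58.3% (21 of 36, 42.2 to 72.9%), 32.9% (69 of 210, 26.9 to 39.5%), 56.3% (27 of 48) and 3.24% (10 of 309). In the weakest group the order differed, with 3 of 6 tRNA regions, 73.0% of remaining regions away from gene ends and 75.6% of centromeric regions. Neighbouring regions of a cluster are not independent, so these intervals may be too narrow.

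Near tRNA genes, members were strong within their lists. Their median −log10 q was 5.99 in ESC1 (2.30 to 25.9) and 16.6 in ESC2 (4.17 to 56.5), which placed the median member at percentile 72.4 of the ESC1 list and 91.7 of the ESC2 list. Of the 52, 7 stood among the strongest 10% of ESC1 peaks and 31 among the strongest 10% of ESC2 peaks. Regions with a peak in all 4 libraries had medians at percentiles 71.8 and 92.2. The medians of the ESC-only tRNA regions and of the regions with all 4 peaks, which are of any place, thus lay side by side in both ESC lists. Among tRNA regions alone, members were not the strongest. Away from gene ends they were 13 of 46 in the strongest group, 21 of 36 in the next and 13 of 19 in the one after. At gene ends they were 0 of 16 in the strongest group.

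Centromeric members stood at median percentiles 78.4 and 68.9, and remaining members at 48.8 and 62.8. Of the 581 remaining members, 30 were among the strongest 10% in ESC1 and 65 in ESC2. The summits of ESC1 and ESC2 lay a median of 20.5 bp apart in tRNA members, 28 bp in centromeric and 57 bp in remaining ones. Median widths were 517, 361 and 426 bp, against 758 bp for regions with a peak in all 4 libraries. Across regions, Spearman correlations of −log10 q between the 2 ESC lists were 0.57, 0.58 and 0.39 (n = 52, 103 and 581), a description over regions that share libraries.

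**Figure D2:**
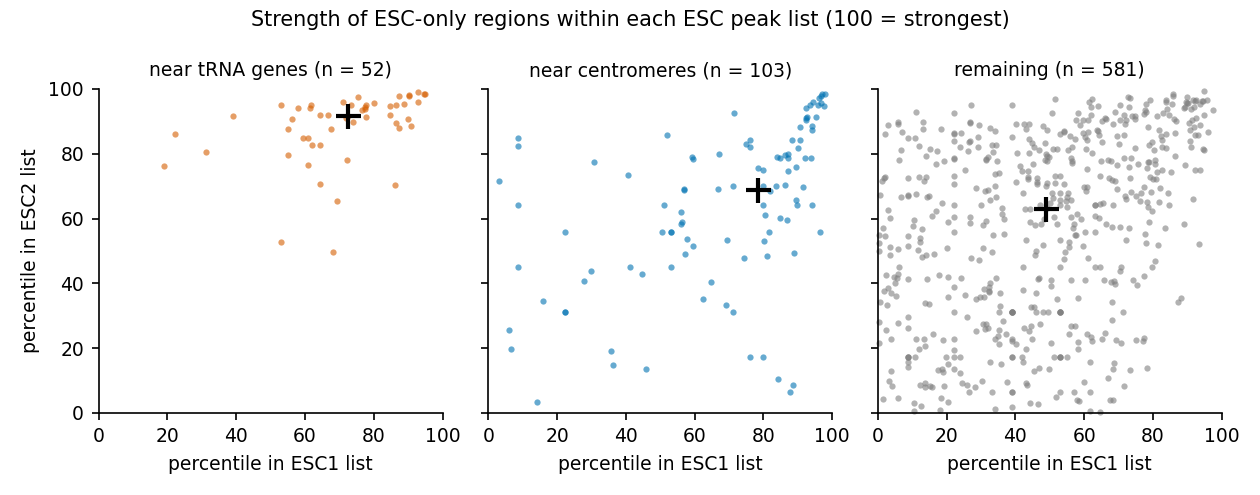
Each point is 1 ESC-only region, placed by its percentile in the ESC1 list (horizontal) and in the ESC2 list (vertical), by −log10 q, with 100 the strongest peak of a list, and crosses mark the class medians. The tRNA points gather in the upper part, with a median of 91.7 in ESC2, while the 581 remaining points fill the whole square.

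The strongest tRNA member by mean rank was chr5:181173485-181174317, which covers the leucine gene TRL-AAG1-3 and the valine gene TRV-CAC1-4. Its −log10 q was 25.9 in ESC1 and 43.9 in ESC2, with pileups of 47 and 77 reads, and the nearest NSC peaks lay 3694 bp (NSC1) and 13311 bp (NSC2) away. The alanine gene TRA-TGC7-1 (chr6:28802594-28803056) followed with −log10 q of 23.5 and 40.8 and enrichments of 10.5-fold and 12.9-fold, and NSC peaks 35.3 kb away in both lists. TRE-TTC3-1, a glutamate gene on chromosome 1, had 18.8 and 56.5. TRL-AAG2-2, printed above, had 18.7 and 25.6. The next were TRL-CAA3-1 (13.8 and 39.5), TRY-GTA5-3 (13.8 and 34.4) and TRC-GCA11-1 (11.1 and 36.3). TRY-GTA4-1, TRC-GCA13-1 and TRC-GCA9-3 completed the 10 strongest, with −log10 q from 10.8 to 13.4 in ESC1 and from 15.6 to 23.2 in ESC2. By percentile, these 10 stood at 86.5 or above in the ESC1 list and at 90.9 or above in the ESC2 list.

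Over the 443 tRNA genes of the RefSeq table on these chromosomes, ESC1 listed a peak within 200 bp for 161, ESC2 for 255, NSC1 for 152 and NSC2 for 150. Of the 159 genes with a peak of both ESC libraries, 54 had none in NSC (34.0%, interval 27.1 to 41.6%), and these are 12.2% of all tRNA genes. All 4 libraries had a peak at 91 genes, both NSC libraries and no ESC library at 10, ESC2 alone at 54, and no library at 168. The number for ESC1 thus stood close to those of the NSC libraries, and ESC2 stood apart with more tRNA genes than any other library. The part of these library differences in the ESC-only count was not tested.

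By isotype, serine genes gave the most members, 8 of the 14 serine genes with both ESC peaks and of 26 in the table. Leucine and proline gave 6 each (of 17 and 15 with both ESC peaks), and alanine, cysteine and lysine 4 each (of 11, 6 and 9). Arginine gave 1 of 13, glycine 1 of 8 and aspartate 0 of 5. Of the 5 genes in the group of initiator or other genes with both ESC peaks, all had a peak in all 4 libraries. Isotypes share clusters, and the counts are too small to order them.

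By place, 25 of the 54 genes lay on chromosome 6, which holds 155 of the 443 tRNA genes and 46 of the 159 with both ESC peaks. On chromosome 7 the count was 5 of 6 genes with both ESC peaks (22 in the table), and among these were the cysteine genes TRC-GCA9-3, TRC-GCA11-1 and TRC-GCA13-1 (from chr7:149355375-149356016 to chr7:149635370-149636018). Chromosome 17 went the other way, with 4 ESC-only genes of 21 with both ESC peaks and 16 with a peak in all 4 libraries. Of the 52 regions, 41 stood in 11 runs with gaps of at most 100 kb. The tRNA genes themselves lie in clusters. Runs were counted over members only, here and below, so the counts do not show clustering particular to members.

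The median distance from summit to the centre of the nearest tRNA gene was 37 bp in ESC1 (2.5 to 389.5 bp) and 45 bp in ESC2 (0.5 to 331 bp). It was within 100 bp in 44 and 42 of the 52 regions, and inside the gene in 26 and 22. Only closeness of the region to the gene was used by the rule. All 52 regions overlapped a tRNA gene, at a median region width of 517 bp, so a summit near the gene follows in part from that choice. These distances are not given for tRNA regions with a peak in all 4 libraries, so closeness is not shown to be particular to members. One member at a coding gene end, chr17:8139348-8139757, covers TRT-AGT5-1 715 bp from PER1, a core repressor of the circadian clock. Its −log10 q was 11.1 in ESC1 and 13.3 in ESC2, and NSC peaks lay 139 and 154 bp from its edge.

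**Figure D3:**
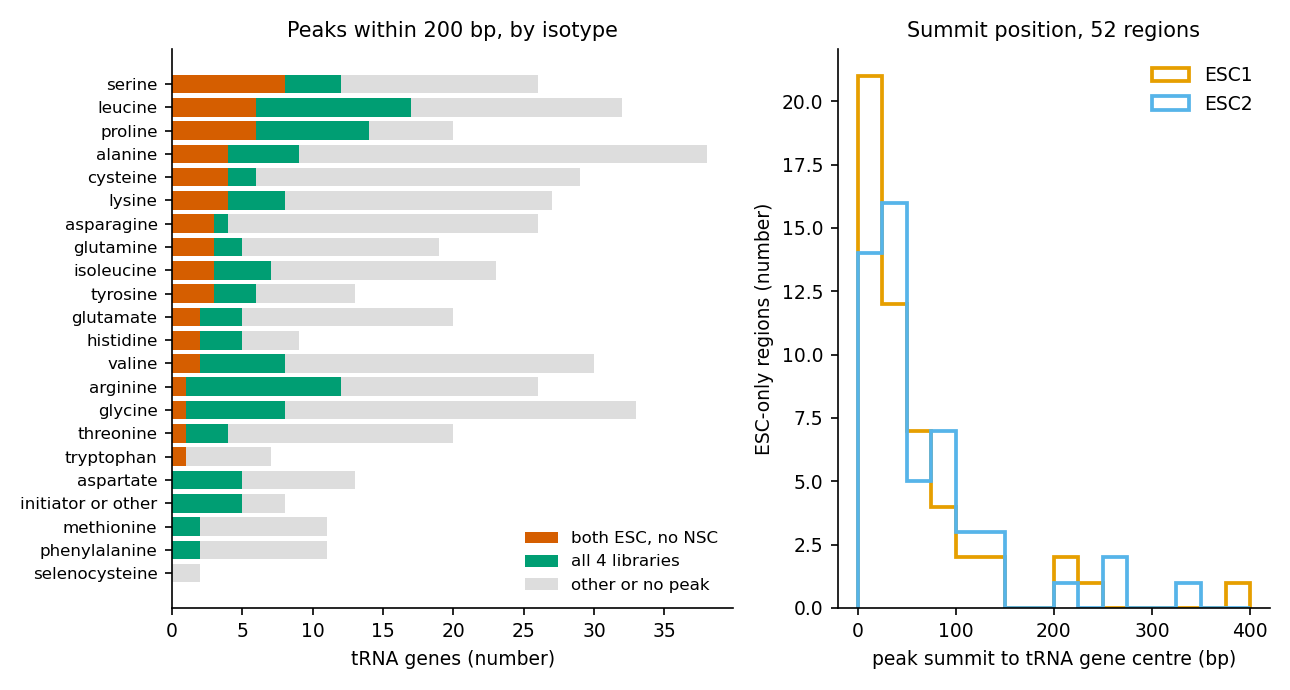
Left, bars give the tRNA genes of each isotype by the libraries with a peak within 200 bp: both ESC and no NSC, all 4, or any other pattern including none. Right, outlines count the 52 ESC-only tRNA regions by distance from the peak summit to the centre of the nearest tRNA gene, in bins of 25 bp, for ESC1 and ESC2. Serine has the most ESC-only genes (8), and 44 and 42 of the 52 summits lie within 100 bp.

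Centromeric members lay mostly outside genes, 90 of 103 (87.4%). Most centromeric regions with both ESC peaks did so too, 215 of 269. The share outside genes was 69.4% for centromeric regions with a peak in all 4 libraries and 47.6% for all centromeric regions. Of the 103 members, 65 stood in 21 runs. The strongest, chr6:58784710-58785095, lay 664 kb from the nearest gene of the table and had −log10 q of 69.8 and 45.9, pileups of 64 and 44 reads and enrichments of 23.05-fold and 19.1-fold in ESC1 and ESC2. Its nearest NSC peaks were 823 and 790 kb away. The next was different in kind. At chr4:49103452-49103743 pileups were 225 and 209 reads but enrichment only 3.12-fold and 3.40-fold, and NSC peaks lay 787 and 533 bp away.

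A high pileup with a low fold also marked chr16:34586709-34587014 (256 and 200 reads, 2.68-fold and 3.07-fold) and others of the 10 strongest, such as chr2:89836373-89836598 in IGK (134 and 108 reads), chr10:41861490-41861758 (140 and 100 reads) and chr16:34593104-34593713 (195 and 108 reads). The longest run held 8 members over 50.4 kb of chromosome 4 between CWH43 and LOC101927209, followed by 7 over 22.4 kb of chromosome 20 near CDC27P5 and 6 over 139 kb of chromosome 4 near pseudogenes of SNX18. In these 3 runs an NSC peak came within 389, 505 and 581 bp of a member. A run of 5 members near BAGE2 on chromosome 21, had no NSC peak within 189 kb. The alignments named in the file headers carry the words uni and dedup, but the filter on reads that map to several places is not spelled out, and its part in these values was not tested.

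NSC peaks stood at a median distance of 16.8 kb (NSC1) and 14.8 kb (NSC2) from tRNA members, 115 and 21.3 kb from centromeric members, and 30.6 and 35.9 kb from remaining members. Within 1 kb of an NSC peak were 8 of 52, 20 of 103 and 41 of 581, and within 100 bp 1, 0 and 7. So 69 of the 736 members bordered an NSC peak at 1 kb or less, and 528 had one within 50 kb. The NSC lists are long, and the same distances were not taken for other places, so no base share stands beside these.

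**Figure D4:**
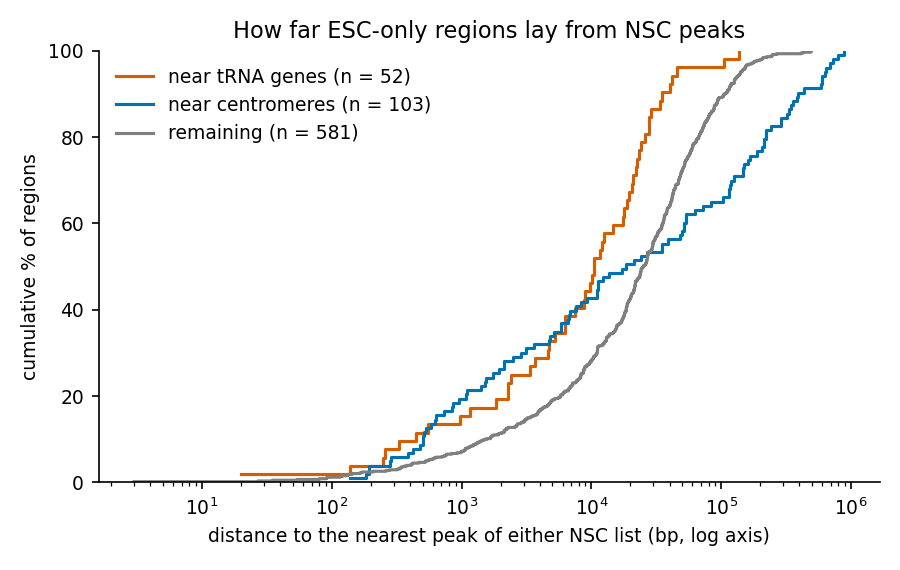
Each line gives the cumulative percent of ESC-only regions of a class by distance to the nearest peak of either NSC list, on a log axis in bp. The tRNA line is complete soonest, with 96.2% of regions within 50 kb, the remaining regions reach 72.1% there and the centromeric regions 57.3%.

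Of the 581 remaining members, 64 (11.02%, interval 8.72 to 13.8%) lay at coding gene ends, 317 (54.6%) inside genes and 200 (34.4%) outside. Over all 42976 remaining merged regions these shares were 22.6, 49.8 and 27.6%, and over those with a peak in all 4 libraries 67.5, 22.5 and 10.1%. The gene-end share was 31.3% when the ESC2, NSC1 and NSC2 lists were all shortened to their 4204 strongest peaks, the length of the ESC1 list. It thus moves with the lengths of the lists, and the low share was not kept at equal length. By mean rank, the strongest remaining member was chr16:84013896-84014703 inside SLC38A8, a glutamine transporter gene, with −log10 q of 24.4 in ESC1 and 96.8 in ESC2, pileups of 45 and 133 reads and NSC peaks 20.3 and 102 kb away. CNTNAP2, a neurexin family gene of neurons, followed with 28.9 and 27.6 (chr7:148331481-148331833, NSC peaks 3206 and 3264 bp away). Both stood at percentile 94.7 or above in either ESC list.

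Others of the 10 strongest were inside SEZ6L2, a gene of a brain cell-surface protein (16.7 and 25.7), inside NOP14, a gene of small ribosomal subunit assembly (15.6 and 28.0), inside LOC112268102 (18.1 and 27.8), 8982 bp from RNU7-92P on chromosome 20 (24.3 and 26.6) and 406 bp from FAM138E (21.99 and 26.1). FAM138E lies close to the end of chromosome 15, and another of the 10, 1050 bp from RPL23AP53 on chromosome 8, starts at base 206794 (13.4 and 33.2). The last 2 were near LOC101929814 on chromosome 1 (chr1:143192650-143193301 and chr1:143232651-143233383), with −log10 q of 20.3 and 23.1 and of 44.7 and 19.3. They belong to a run of 7 members, the longest among remaining regions, outside the window used for the centromere. The high pileup with low fold described for centromeric members also occurred outside that window. At chr16:46386320-46386519, 7986 kb from the band, pileups were 328 reads in ESC1 and 233 in ESC2, at 1.71-fold and 1.74-fold. These were the highest pileups and the lowest folds of the remaining class. In all, 108 of the 581 stood in 44 runs, again with no count over other regions.

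Several of these runs cover gene families with near-identical copies. They include 6 members in the REXO1L array of chromosome 8, 4 near TAF11L genes on chromosome 5 and 3 in the USP17L array of chromosome 4. Others held 4 members at TRG, the T cell receptor gamma locus on chromosome 7, and 3 at IGH, the immunoglobulin heavy chain locus on chromosome 14. The regions at USP17L22 and USP17L24 carried the same −log10 q in either library, 4.83 in ESC1 and 5.67 in ESC2, at pileups of 12 reads. Unrelated members with a pileup of 12 reads had these values too, as in GULP1 (4.83 in ESC1) and near LRFN5 (5.67 in ESC2). The equal values are therefore not particular to gene copies. Reads of near-identical copies may not be told apart, so which copy holds the signal is uncertain.

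At coding gene ends, 36 of the 64 members lay nearest a start and 13 nearest a 3′ end, and for 15 the table gave no strand. TAF11L5 (NCBI gene 646066) came first by rank, with −log10 q of 17.8 and 15.9 in ESC1 and ESC2. FBXO27, an F-box gene of glycoprotein ubiquitination, had 9.39 and 28.1 at 758 bp from its start, with NSC peaks 100 and 41.8 kb away. The region 311 bp past the 3′ end of GPR146, inside CHLSN, had 9.59 and 19.6. PTER (10.6 and 15.4) and ZFP36L1 (8.28 and 16.3), which encodes an RNA-binding protein that speeds decay of AU-rich messages, had regions over the start itself. The pileups at ZFP36L1 were 19 and 35 reads, and its NSC peaks lay 2663 bp (NSC1) and 64.8 kb (NSC2) away.

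GAGE2A, a cancer-testis antigen gene of a multicopy X-linked family, had 8.83 and 9.80 at 455 bp inside its start and a second member at its 3′ end (7.78 and 3.84). CFD, the gene of complement factor D, had 5.53 and 18.2. The region shared by EEF1AKMT4 and ALG3, a gene of N-glycan assembly, had 7.83 and 9.48, with NSC peaks 440 and 379 bp from its edges. SAXO5 had 5.80 and 11.8. NR1H2, the gene of liver X receptor beta, had 4.67 and 15.2 and an NSC2 peak 54 bp away. The members at TAF11L10, OPA3, PRAME, HTR1E and SP8 ranked close to NR1H2, with −log10 q from 4.89 to 6.53 in ESC1 and from 7.11 to 11.7 in ESC2. Some gene-end members were closely bordered by an NSC peak, as at NR1H2, and others were not, as at GAGE2A, where the nearest NSC peak was 243454 bp from the first region and 249426 bp from the second.

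Gene lists were read by the share of genes with a member in the gene or within 10 kb, which over all 19970 coding genes was 2.28% (455 genes). The epithelial list, shortened by 1 gene after its count was seen, had 3 of 19, the axial progenitor list 2 of 16, and the lists of pluripotency (30 genes), neural progenitors (20) and the circadian clock (14) 1 each. The other 9 lists had 0, namely ESC long noncoding and HERVH-linked genes (16), TGF-beta, nodal and BMP genes (24), FGF and ERK feedback (16), mesoderm and endoderm (16), neurons (12), neural crest (10), blood (10), RNA polymerase III and its factors (22) and the BAF complex (28). A peak of ESC1 lay in or within 10 kb of 15.3% of coding genes, and one of ESC2, NSC1 and NSC2 of 43.4, 64.2 and 59.2%. For the epithelial list these numbers were 5, 9, 10 and 11 of 19, and for the pluripotency list 4, 17, 14 and 12 of 30. These counts are small, and the lists were chosen with results of these data known.

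Epithelial genes named here hold cells in a sheet or control splicing in it. ESRP1, an epithelial splicing regulator, had −log10 q of 8.91 in ESC1 and 17.8 in ESC2, with pileups of 19 and 33 reads. Its region, chr8:94640594-94641370, covers the gene boundary of lower coordinate, at base 94641174. The table gave no strand for ESRP1, so whether this boundary is the start or the 3′ end was not read. No NSC peak lay in ESRP1 or within 10 kb of it, and the nearest were 78.4 and 78.2 kb from the region. CLDN7, a claudin of tight junctions, had 3.91 and 7.21 over its start, with NSC peaks 10.4 and 10.3 kb away. CLDN6, a claudin of early epithelia, had 2.37 and 10.7 at a region 5765 bp away, which lay nearer to CLDN9 (3976 bp). Peaks of both NSC libraries also lay in or within 10 kb of CLDN6 and CLDN7, so for both the ESC-only call holds for the region and not for the whole gene.

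L1TD1, an RNA-binding protein gene derived from a LINE-1 element and known from pluripotent cells, was the 1 pluripotency gene with a member. Its region, chr1:62194379-62194831, ended 18 bp before the gene, with −log10 q of 3.29 and 4.52 and pileups of 14 and 16 reads, and the nearest peak of either NSC list was 43.1 kb away. POU5F1 had a peak within 10 kb in all 4 libraries and NANOG in none. SP8, a zinc finger gene of limb and neural patterning, had 5.26 and 8.57 at 197 bp before its start, with NSC peaks 8804 and 9042 bp away. WNT3A, a ligand of canonical WNT signalling, had 2.67 and 13.8 inside the gene, near its 3′ end, with NSC peaks 21.5 kb away in both lists. SOX1, an early neural gene, had 3.01 and 2.21 at 6878 bp from the gene, the lowest mean rank of the list regions named here, with NSC peaks 5811 and 11527 bp away. Peaks of both NSC libraries also lay in or within 10 kb of SP8, WNT3A and SOX1. The gene-end regions of ESRP1 and ZFP36L1 stood well above L1TD1 and SOX1 in both ESC lists.

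Promoter windows of 300 bp, 250 before and 50 after a start, were overlapped by 33 remaining members, with 38 windows in all. Their median GC content was 57.7% with 13 CpG, close to all 34961 windows (58.7% and 14), against 69.3% and 31 in windows under NSC-only regions and 61.7% and 23 in windows under regions with a peak in all 4 libraries. The GC box letters GGGCGG, on both strands, were in 47.4% of the 38, in 45.0% of all windows, in 75.7% under NSC-only regions and in 71.9% under regions of all 4 libraries. CCAAT was in 47.4% of the 38 and in 34.6, 35.7 and 55.5% of those sets. ATGCAAAT, the octamer, was in 4 of the 38 (10.5%) against 1.77% of all windows, but 3 of these 4 (TRERF1, LOC124900214 and LOC107986596) share 1 member, and F2RL1 has the other, so the octamer was in windows of 2 of 33 members. TATAAA was in 5.26% (11.5% of all), CCGGAAG in 10.5% (10.3%) and CACGTG in 7.89% (7.27%).

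A few remaining members covered small RNA genes. SNAR-C3 on chromosome 19, of a primate family of short RNAs made by RNA polymerase III, had −log10 q of 15.1 and 19.7 and NSC peaks 8285 and 8289 bp away. SNAR-B1 on the same chromosome had 4.58 and 4.73. RNVU1-26, a variant U1 snRNA gene, had 3.11 and 11.5, and LOC124904634, also in the snRNA class, 4.18 and 8.23. MIR3939 had 2.37 and 3.24. LOC124904573, in the class of miscellaneous RNA, had 3.41 and 2.55. Remaining members were 4 of the 37 merged regions over snRNA genes, 1 of 75 over miRNA genes and 1 of 7 over miscellaneous RNA genes. Over snoRNA genes they were 0 of 12, and over all remaining merged regions 1.35%. These counts are small. Strengths ran from the lower part of the lists (MIR3939) to their upper part (SNAR-C3).

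Across chromosomes, 57 remaining members lay on chromosome 19, or 4.13% of its 1380 remaining merged regions, against 0.757 to 2.15% on the other chromosomes. Chromosome 19 also had 208 such regions with both ESC peaks, and 27.4% of those were ESC-only, close to the 28.5% over all chromosomes. The high count there goes with the number of regions peaked in both ESC libraries, not with a higher share without an NSC peak. Chromosomes 8 and 9 had the highest shares on that base, 47.2% (34 of 72) and 42.5% (34 of 80), and chromosome 1 the lowest, 18.8% (41 of 218).

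**Figure D5:**
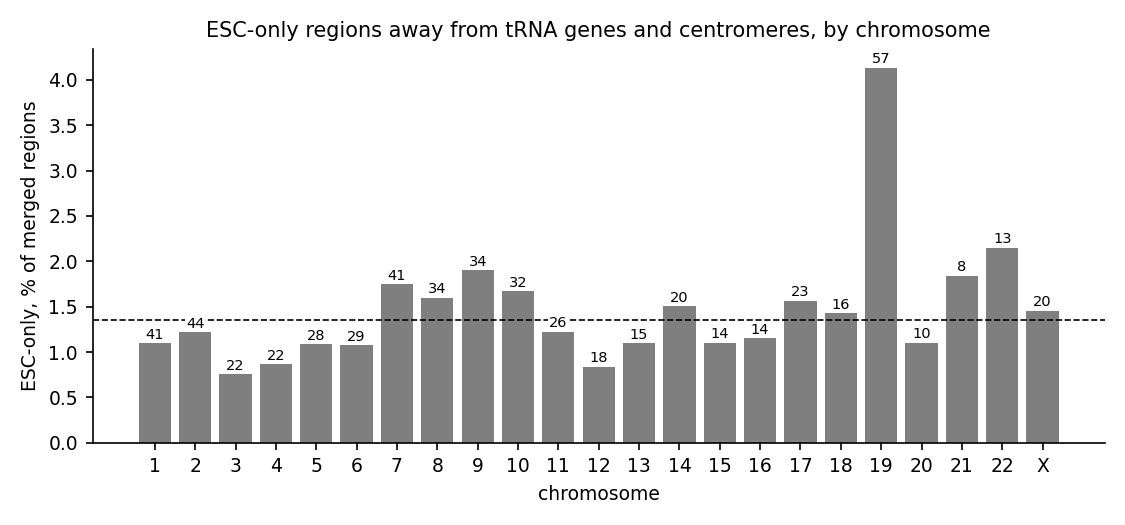
Bars give remaining ESC-only regions as a percent of the merged regions of a chromosome outside the tRNA and centromere classes, with their number above, and the dashed line marks 1.35% over all. Chromosome 19 stands at 4.13% with 57 regions, and the others lie between 0.757 and 2.15%.

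The threshold shows how near some members came to being left out. The weakest ESC peaks inside it had −log10 q of 1.32, at chrX:530550-531257 near FABP5P13 (ESC2), in NEBL (ESC1) and near LOC100129527 (ESC1). Just outside were regions with both ESC peaks and 1 weak NSC peak, in CELF5 (8.33 and 43.1 in ESC, 1.34 in NSC2), in LINC02684 (7.78 and 16.5, 1.36 in NSC2) and 3679 bp from MN1 (3.67 and 5.11, 1.38 in NSC2). The CELF5 region stood above the median remaining member (3.70 in ESC1 and 5.54 in ESC2) in both ESC lists and was left out by 1 weak NSC2 peak. The number of members also rests on asking for both ESC libraries: without ESC1 there were 7272 regions and without ESC2 2401, against 736.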

How the data were processed

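BAF45D CUT&Tag peak lists of 2 ESC and 2 NSC libraries were used. Per the file headers, the authors called peaks for each library apart with MACS2 2.1.0.20150420 without a control, at a q cutoff of 0.05, with reads shifted by -100 bp and extended to 200 bp and background taken over 10000 bp. The deposited values are the pileup signal in reads, fold enrichment, −log10 p-value and −log10 q-value of each peak. FastQC, Trimmomatic, BWA 0.7.12 and build hg38 are named in the submitters' processing notes. The input alignments named in the headers carry the words uni and dedup, and how reads were filtered to make them is not spelled out. Summit searching was on, so a peak listed with several summits was counted once, at its strongest summit.

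From these lists, peaks overlapping by 1 bp were joined (Python 3.11.15, pandas 2.3.3, numpy 2.4.6), and the joining was tested on simulated peaks against bedtools 2.31.1. Genes and promoter sequences were those of RefSeq on GRCh38.p14, matched by symbol, and centromeric bands were written by hand to 0.1 Mb for the hg38 cytobands. Gene-end regions are those whose nearest coding gene boundary lies no more than 1 kb away. Named regions are the 10 strongest of each class by mean rank of −log10 q in the 2 ESC lists, 10 more at gene ends, up to 4 hits of each gene list, and 3 on each side of the threshold. TAF11L10, OPA3, PRAME, HTR1E, the small RNA genes and the runs were named after their values were seen. The members and lists were chosen with earlier results of these data known. A gene of the epithelial list is not reported here and was left out of that list's counts after they were seen. Intervals are 95% Wilson intervals. Alternatives covered the overlap, −log10 q of at least 5, distance to NSC peaks, list length, each library left out, and the windows used.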

Additional observations from a re-analysis of the deposited data

Results flagged for a closer look

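Peaks on sequences not placed on chromosomes 1 to 22 or X belong to no comparison above. Joined in the same way, they gave 323 regions, of which 78 on 30 sequences had peaks of both ESC libraries and of neither NSC library. That is 24.1% of these regions and 41.3% of the 189 with both ESC peaks, with median −log10 q of 8.54 in ESC1 and 6.44 in ESC2. They were picked out because the signal lies in data outside the main measurement. There were no control libraries, and since peak presence chose these regions the count is a description with no test.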

How the results depend on the processing

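Of 61 recomputed values, 37 stayed within 1.5 times the reported count or within the interval of the reported share. With −log10 q of at least 5 in every library, members were 296, of them 67 near centromeres and 194 remaining. With that limit in ESC and all NSC peaks kept, they were 207, with 32 near tRNA genes, 50 near centromeres and 125 remaining. With no NSC peak within 10 kb, 28 tRNA and 59 centromeric regions were left, and the gene-end share was 8.17%. It was 31.3% at equal list length, 18.2% with a 2.5 kb window, 7.40% with 500 bp and 21.5% with all genes. With no margin around the bands, 54 regions were centromeric. Leaving out 1 library at a time gave 856 to 7272 members, 54 to 107 near tRNA genes, 114 to 297 near centromeres, 669 to 6868 remaining, and a gene-end share of 6.34 to 14.4%. The upper counts came without ESC1. The gene-free interval as centromere was added for the remaining regions after seeing the data and gave 589. No paired analysis was possible because the results come from peak presence and from no test. Lower NSC depth limits what absence of a peak can show, and intervals cover counting error only.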
